A study of Homo sapiens with 8 samples.

Results

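Small Cajal body RNAs (scaRNAs) were read on microarrays of a human skin carcinoma line in which 1 of 3 Polycomb proteins had been targeted by a short hairpin RNA. Members were taken by name, as annotated genes whose symbol starts with SNORA, SNORD or SCARNA. The annotation gave 23 such genes among 14884 named genes, and all 23 carry SCARNA symbols. No probe set carries a SNORA or SNORD symbol in the annotation used, so nucleolar C/D box and H/ACA box RNAs were not analysed here, and the name small Cajal body RNAs is used for the set. Each of the 23 had 1 probe set and none was removed by a filter.

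The 8 arrays came from RNA of SCC13 cells, a long-established culture line derived from a squamous cell carcinoma of human skin. Each of 4 hairpins had 2 arrays. The hairpin against GFP, a jellyfish protein, was the control and is called shGFP. The shRING1B and shBMI1 hairpins are aimed at RING1B (gene RNF2) and BMI1, which belong to Polycomb repressive complex 1, and shEZH2 at EZH2, the histone methyltransferase of Polycomb repressive complex 2. All groups thus carry a hairpin, and the labels give no time, dose or number of clones. The titles of the shEZH2 arrays start with SCCL3 and those of the other 6 arrays with SCC13, so a difference that goes with this prefix and the shEZH2 hairpin cannot be told apart. Nothing in the labels tells whether arrays with the same hairpin are separate cultures. The p-values thus reflect the spread from array to array alone, and that spread may be technical.

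Cajal bodies are nuclear bodies in which the small nuclear RNAs of the spliceosome mature. scaRNAs are guides in this process: they pair with a small nuclear RNA and bring an enzyme to the base that is to be modified. C/D box RNAs carry fibrillarin, which methylates the ribose, and H/ACA box RNAs carry dyskerin, which turns uridine into pseudouridine. Some scaRNAs hold both kinds of box. Most are cut from introns of other genes, so a probe inside the guide also matches the unspliced transcript of its host. By general knowledge and the RefSeq aliases, 5 of the 23 are of the C/D kind (SCARNA2, SCARNA7, SCARNA9, SCARNA9L, SCARNA17), 4 are mixed (SCARNA5, SCARNA6, SCARNA10, SCARNA12) and 13 are of the H/ACA kind. SCARNA27 has no alias there and was not classed.

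Values are log2 expression, so a difference of 1 is a doubling. The medians of the arrays ran from 5.49 to 5.52. EZH2 mRNA was 1.88-fold lower with its own hairpin (log2 -0.91 ± 0.12 SE, adjusted p = 0.0183 by limma, n = 2 per group), while BMI1 and RNF2 were not analysed here. Genes are called measured if a probe set carries their symbol in the annotation used, which names 16098 of 53617 probe sets. Of 12 keratinocyte markers 6 were measured, the brightest being KRT5 between 10.1 and 10.6 and SFN between 11.4 and 11.6. KRT14 lay between 9.04 and 9.72 and DSG3 between 9.22 and 10.4. KRT16 was lower, between 7.22 and 7.86, as was DSC3, between 7.19 and 8.14. KRT6A, KRT17, TP63, LAMB3, ITGA6 and COL17A1 had no probe set so named. Of 7 fibroblast markers 3 were measured, and the median of these 3 ran from 5.91 to 6.42 across arrays. DCN lay between 6.94 and 8.03, which overlaps the ranges of KRT16 and DSC3, and LUM between 3.94 and 5.33. With shEZH2 the matrix proteoglycan DCN was higher (0.93 ± 0.10, adjusted p = 0.0109), while LUM at 0.89 ± 0.23 and THY1 at -0.15 ± 0.15 did not pass. Of 5 melanocyte markers 4 were measured, with a median of 5.21 to 5.49 across arrays. MLANA was higher with shEZH2 (0.64 ± 0.11, adjusted p = 0.046), while SOX10 at 0.20 ± 0.15, PMEL at -0.15 ± 0.12 and TYR at -0.01 ± 0.15 did not pass. MLANA lay between 4.18 and 4.85 across arrays, below the array medians, and the values carry no detection call. Of the keratinocyte markers 5 of 6 had negative values with shEZH2 and none passed, with KRT14 at -0.57 ± 0.13 and DSG3 at 0.43 ± 0.13. With either shEZH2 array left out limma called 0 genes in that comparison, so these calls need both arrays. The part of these markers in the scaRNA values below was not tested.

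No scaRNA passed the test in any of the 6 comparisons between hairpins. The largest fitted differences from the control were the higher values of SCARNA5 and SCARNA6 with shEZH2. SCARNA2 and SCARNA8 had the smallest p-values with shEZH2, at lower levels. By limma's moderated test, adjusted over all 14884 genes at a threshold of 0.05, 0 of 23 were called with shRING1B, where 0% of all genes were called. The count was 0 of 23 with shEZH2 (all genes 0.732%) and 0 of 23 with shBMI1 (all genes 0%). Between knockdowns it was 0 of 23 for shRING1B against shBMI1 (all genes 0.0134%), for shRING1B against shEZH2 (0.578%) and for shEZH2 against shBMI1 (0.974%). An F test across the 4 hairpins called 0 of 23 and 0.679% of all genes, with a smallest adjusted p of 0.211 (SCARNA8).

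At an unadjusted p under 0.05 there were 5 scaRNAs with shRING1B (all genes 8.6%), 5 with shEZH2 (16.2%) and 2 with shBMI1 (5.58%). As shares these were 21.7%, 21.7% and 8.7% of the 23. With limma's variance fitted to the level and made robust to outliers, 1 scaRNA was called: SCARNA2 with shEZH2 (adjusted p = 0.0304), where 4.35% of all genes were called. The 2 arrays of the knockdown both lay on one side of both shGFP arrays for 8 of 23 scaRNAs with shRING1B, where this held for 37.3% of all genes. The same count was 8 with shEZH2 (all genes 50.1%) and 5 with shBMI1 (31.8%), so the share among scaRNAs, 34.8%, 34.8% and 21.7%, was no higher than among all genes.

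**Figure D1:**
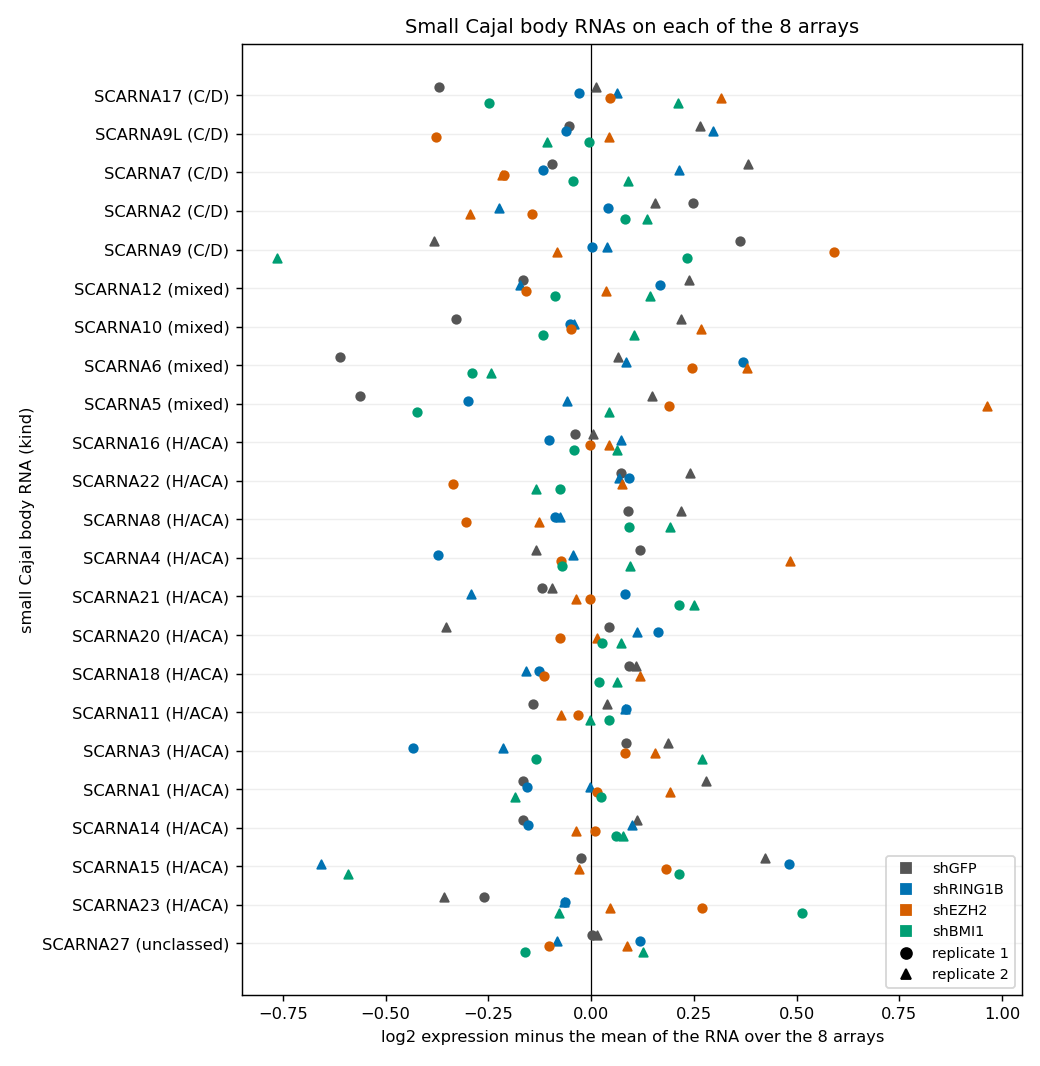
Each row is 1 small Cajal body RNA, and each point is 1 array, plotted as log2 expression minus the mean of that RNA over the 8 arrays. Colours mark the hairpin and shapes the replicate number. SCARNA5 reaches the highest point with shEZH2 replicate 2, and SCARNA9 and SCARNA15 spread widely within hairpins.

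Among the mixed guides, SCARNA5 and SCARNA6 had the largest differences from shGFP with shEZH2. Both hold C/D and H/ACA boxes, and in RefSeq both lie within the gene of the autophagy protein ATG16L1. SCARNA5 read 6.27 and 6.98 with shGFP, 6.53 and 6.77 with shRING1B, 7.02 and 7.79 with shEZH2, and 6.41 and 6.87 with shBMI1. The shEZH2 arrays lay above all 6 others, but the lower of them was only just above shGFP replicate 2. The difference from shGFP was 0.78 ± 0.30 (SE, n = 2 per group; 95% interval 0.09 to 1.48, adjusted p = 0.263), a 1.72-fold higher mean that did not pass. SCARNA5 stood at 0.03 ± 0.30 with shRING1B and at 0.02 ± 0.30 with shBMI1.

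SCARNA6 read 6.63 and 7.31 with shGFP, 7.61 and 7.33 with shRING1B, 7.49 and 7.62 with shEZH2, and 6.955 and 6.999 with shBMI1. All 4 arrays of shRING1B and shEZH2 lay above the other 4, by a small margin over shGFP replicate 2. The difference was 0.59 ± 0.20 with shEZH2 (95% interval 0.12 to 1.05, adjusted p = 0.217) and 0.50 ± 0.20 with shRING1B (0.04 to 0.96, adjusted p = 0.543), and with shBMI1 it was 0.01 ± 0.20. These sizes turned on the control arrays, which were 0.68 apart. With shEZH2 the SCARNA6 value was 0.25 without shGFP replicate 1 and 0.92 without shGFP replicate 2, that with shRING1B was 0.16 and 0.84, and that of SCARNA5 with shEZH2 was 0.43 and 1.14. The SCARNA5 value was 1.17 without shEZH2 replicate 1 and 0.39 without shEZH2 replicate 2.

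ATG16L1 mRNA stood at -0.14 ± 0.09 with shEZH2, at -0.00 ± 0.09 with shRING1B and at 0.10 ± 0.09 with shBMI1, all short of the threshold. The other mixed guides stood closer to the control. SCARNA10, the U85 RNA, which guides both a methylation and a pseudouridine in U5, read 7.74 and 8.29 with shGFP, 8.02 and 8.03 with shRING1B, 8.02 and 8.34 with shEZH2, and 7.96 and 8.18 with shBMI1. The shGFP arrays enclosed or nearly enclosed all the others, and the difference was 0.16 ± 0.18 with shEZH2 (95% interval -0.26 to 0.59). SCARNA12 lay between 10.3 and 10.7 on all arrays, with differences from shGFP of -0.04, -0.10 and -0.01 with shRING1B, shEZH2 and shBMI1 (SE 0.17 for each).

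Among C/D guides, SCARNA2 had the smallest p-value with shEZH2. It guides methylation of the U2 small nuclear RNA and is transcribed from its own promoter, and no other RefSeq gene spans it. SCARNA2 read 8.93 and 8.83 with shGFP, 8.72 and 8.45 with shRING1B, 8.53 and 8.38 with shEZH2, and 8.76 and 8.81 with shBMI1. The shGFP arrays were the highest pair, shBMI1 lay just under them, and the shRING1B and shEZH2 arrays were the 4 lowest. The difference was -0.42 ± 0.11 with shEZH2 (95% interval -0.68 to -0.16, a 1.34-fold lower mean, adjusted p = 0.132). It was -0.29 ± 0.11 with shRING1B (-0.55 to -0.03, adjusted p = 0.518) and -0.09 ± 0.11 with shBMI1.

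SCARNA7, the U90 guide for U1, read 9.25 and 9.72 with shGFP, 9.22 and 9.56 with shRING1B, 9.13 and 9.13 with shEZH2, and 9.30 and 9.43 with shBMI1. Both shEZH2 arrays lay below the other 6, at a difference of -0.36 ± 0.17 (95% interval -0.74 to 0.03, adjusted p = 0.341). SCARNA17, the U91 guide, had values on the other side: it read 9.99 and 10.38 with shGFP and 10.41 and 10.68 with shEZH2, a difference of 0.36 ± 0.18 (-0.06 to 0.78, adjusted p = 0.375). On the remaining arrays SCARNA17 read 10.34 and 10.43 with shRING1B and 10.12 and 10.58 with shBMI1. With shEZH2, 2 of the 5 C/D guides had means above the control and 3 below it.

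SCARNA9, a tandem C/D guide for U2, has a related copy elsewhere in the genome, SCARNA9L. Signal of one may come from the other, which was not tested, since no sequences were compared. SCARNA9 read 6.99 and 6.25 with shGFP, 6.63 and 6.67 with shRING1B, 7.22 and 6.55 with shEZH2, and 6.86 and 5.87 with shBMI1. Within 3 of the 4 hairpins its arrays lay 0.67 to 1.00 apart, and no hairpin stood clear of the control. SCARNA9L read 9.57 and 9.89 with shGFP, 9.56 and 9.92 with shRING1B, 9.25 and 9.67 with shEZH2, and 9.62 and 9.52 with shBMI1. With shEZH2 the difference was 0.26 ± 0.36 for SCARNA9 and -0.27 ± 0.18 for SCARNA9L, and neither passed.

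Among H/ACA guides, SCARNA8 had the smallest p-value with shEZH2. It is the U92 RNA, a guide for pseudouridine in U2, and lies within HAUS6. SCARNA8 read 6.72 and 6.85 with shGFP, 6.54 and 6.55 with shRING1B, 6.33 and 6.50 with shEZH2, and 6.72 and 6.82 with shBMI1. The shRING1B and shEZH2 arrays were the 4 lowest, and shBMI1 covered the same range as the control. The difference was -0.37 ± 0.10 with shEZH2 (95% interval -0.60 to -0.14, a 1.29-fold lower mean, adjusted p = 0.132) and -0.24 ± 0.10 with shRING1B (-0.46 to -0.01, adjusted p = 0.553). With shBMI1 it was -0.01 ± 0.10.

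SCARNA3, which lies within the ubiquitin ligase gene COP1, was lowest with shRING1B. It read 5.10 and 5.20 with shGFP, 4.58 and 4.80 with shRING1B, 5.10 and 5.17 with shEZH2, and 4.88 and 5.29 with shBMI1. Both shRING1B arrays lay below all others. The difference of -0.46 ± 0.14 (95% interval -0.79 to -0.14) had the smallest adjusted p among scaRNAs in that comparison, 0.41. SCARNA3 stood at -0.02 ± 0.14 with shEZH2. Set against shEZH2 directly, shRING1B was at -0.44 ± 0.14 (adjusted p = 0.199), and against shBMI1 at -0.39 ± 0.14 (adjusted p = 0.455). All values of SCARNA3 lay below the array medians of 5.49 to 5.52. The values carry no detection call, so it is not shown that SCARNA3 was above background. SCARNA18 read 6.03 and 6.05 with shGFP and 5.81 and 5.78 with shRING1B, a difference of -0.24 ± 0.10 (adjusted p = 0.543). The arrays of these hairpins did not overlap. The shEZH2 arrays of SCARNA18, at 5.82 and 6.06, lay above both shRING1B arrays and on either side of the control.

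With shBMI1 the smallest p-values belonged to SCARNA23 and SCARNA21. SCARNA21, which lies within the chromatin remodeller gene CHD3, read 6.39 and 6.41 with shGFP, 6.59 and 6.21 with shRING1B, 6.50 and 6.47 with shEZH2, and 6.72 and 6.75 with shBMI1. The shBMI1 arrays were the highest pair, at a difference of 0.34 ± 0.12 (95% interval 0.06 to 0.62, adjusted p = 0.817), and CHD3 mRNA was at 0.06 ± 0.12. SCARNA23, within the DNA polymerase gene POLA1, read 3.42 and 3.33 with shGFP, 3.62 and 3.62 with shRING1B, 3.95 and 3.73 with shEZH2, and 4.20 and 3.61 with shBMI1. Its control arrays were the lowest pair, and the difference was 0.53 ± 0.18 with shBMI1 (adjusted p = 0.784), 0.47 ± 0.18 with shEZH2 (adjusted p = 0.258) and 0.24 ± 0.18 with shRING1B. The SCARNA23 value with shBMI1 was 0.23 without shBMI1 replicate 1 and 0.82 without shBMI1 replicate 2. The values carry no detection call, so it is not shown that SCARNA23 was above background.

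SCARNA22, the ACA11 RNA within the histone methyltransferase gene NSD2, read 7.76 and 7.92 with shGFP, 7.78 and 7.75 with shRING1B, 7.35 and 7.76 with shEZH2, and 7.61 and 7.55 with shBMI1. Its difference was -0.26 ± 0.14 with shBMI1 (adjusted p = 0.929) and -0.29 ± 0.14 with shEZH2 (adjusted p = 0.347), and only the shBMI1 arrays lay clear of the control. NSD2 mRNA was at 0.05 ± 0.09 and -0.15 ± 0.09 in the same comparisons. SCARNA20, within USP32, read 6.54 and 6.14 with shGFP against 6.66 and 6.61 with shRING1B, 6.42 and 6.51 with shEZH2, and 6.52 and 6.57 with shBMI1. Its largest difference, 0.29 ± 0.13 with shRING1B (adjusted p = 0.587), came with control arrays 0.40 apart.

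SCARNA16 and SCARNA11 were the steadiest of the 23. SCARNA16, within the non-coding gene SNHG20, lay between 8.19 and 8.36 on all 8 arrays, and its differences from shGFP were 0.00, 0.04 and 0.03 with shRING1B, shEZH2 and shBMI1 (SE 0.09 for each). SCARNA11 lay between 5.57 and 5.80. For SCARNA16 with shEZH2 the 95% interval was -0.18 to 0.26. SCARNA15, the ACA45 RNA, was the opposite case: it read 3.91 and 4.36 with shGFP, 4.41 and 3.27 with shRING1B, 4.11 and 3.90 with shEZH2, and 4.15 and 3.34 with shBMI1. Its interval with shBMI1 ran from -1.26 to 0.48, the widest of the 23 in that comparison. As for SCARNA23, it is not shown that SCARNA15 was above background. The other 4 scaRNAs (SCARNA1, SCARNA4, SCARNA14 and SCARNA27) had differences from shGFP between -0.20 and 0.21.

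**Figure D2:**
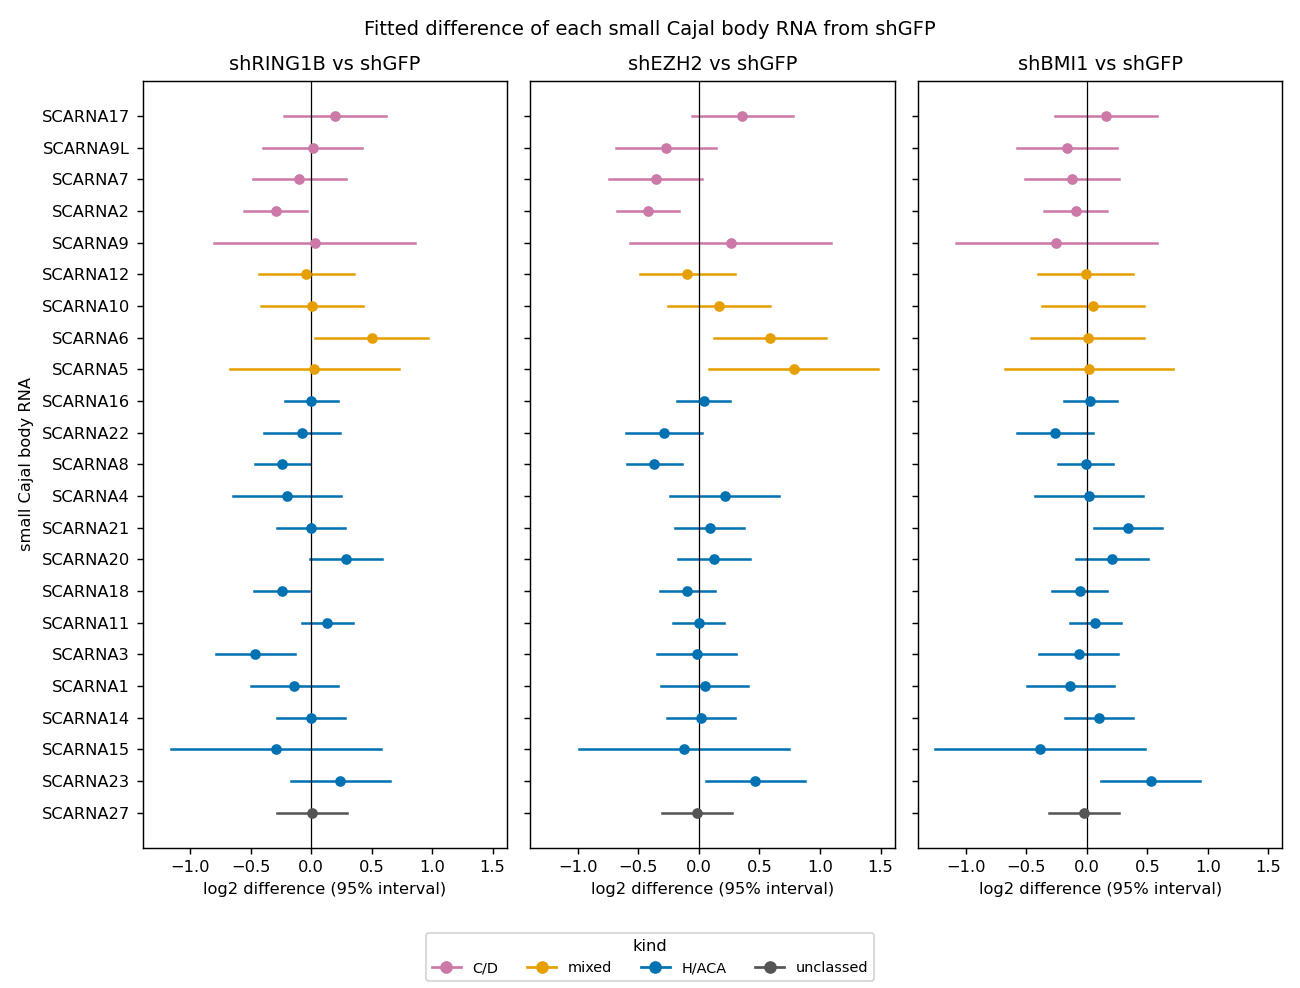
Points are fitted log2 differences from shGFP and lines their 95% intervals, for each small Cajal body RNA (rows) and each knockdown (panels), coloured by kind. With shEZH2, SCARNA2 and SCARNA8 lie below 0 and SCARNA5, SCARNA6 and SCARNA23 above it, and no RNA passed the adjusted threshold.

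The precision differed between members. In the comparison of shEZH2 with shGFP the 95% interval of 20 of 23 scaRNAs lay within a change of 1 log2 unit either way, and that of 10 within 0.5. The 3 outside were SCARNA5, SCARNA6 and SCARNA9. With shRING1B 22 of 23 lay within 1 unit and with shBMI1 21 of 23. The median interval reached 0.36 either side of the estimate.

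The median difference of the scaRNAs was 0.002 with shRING1B (all genes -0.003), 0.01 with shEZH2 (all genes -0.01) and -0.01 with shBMI1 (all genes -0.01). Of 23, 13 had positive values with shRING1B (all genes 49.2%), 12 with shEZH2 (48.1%) and 11 with shBMI1 (46.6%). The sign of the median turned with the control array: with shRING1B it was -0.15 without shGFP replicate 1 and 0.09 without shGFP replicate 2, and with shEZH2 it was -0.092 and 0.085. The spread of values was somewhat wider than among all genes. The median absolute difference was 0.13 against 0.09 with shRING1B, 0.16 against 0.12 with shEZH2 and 0.09 against 0.08 with shBMI1. Among microRNA genes it was 0.14 with shRING1B, 0.15 with shEZH2 and 0.14 with shBMI1.

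By kind, the 4 mixed guides had a median of 0.38 with shEZH2, 3 of them positive, the 13 H/ACA guides 0.01 and the 5 C/D guides -0.27. With shRING1B these medians were 0.02, -0.08 and 0.01, and with shBMI1 0.01, 0.02 and -0.12. These medians moved with single arrays. With shEZH2 the mixed median was 0.07 without shGFP replicate 1 and 0.68 without shGFP replicate 2, and 0.20 without shEZH2 replicate 2. The C/D median with shEZH2 was -0.37 and -0.11 without those control arrays and -0.07 without shEZH2 replicate 1. With shRING1B the C/D median was -0.15 and 0.14 without shGFP replicate 1 and 2, and the mixed median -0.25 and 0.33. Differences between kinds were not tested, since their members share arrays and are not replicates. With shEZH2 the median of the 4 mixed guides lay between the values of SCARNA10 (0.16) and SCARNA6 (0.59).

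**Figure D3:**
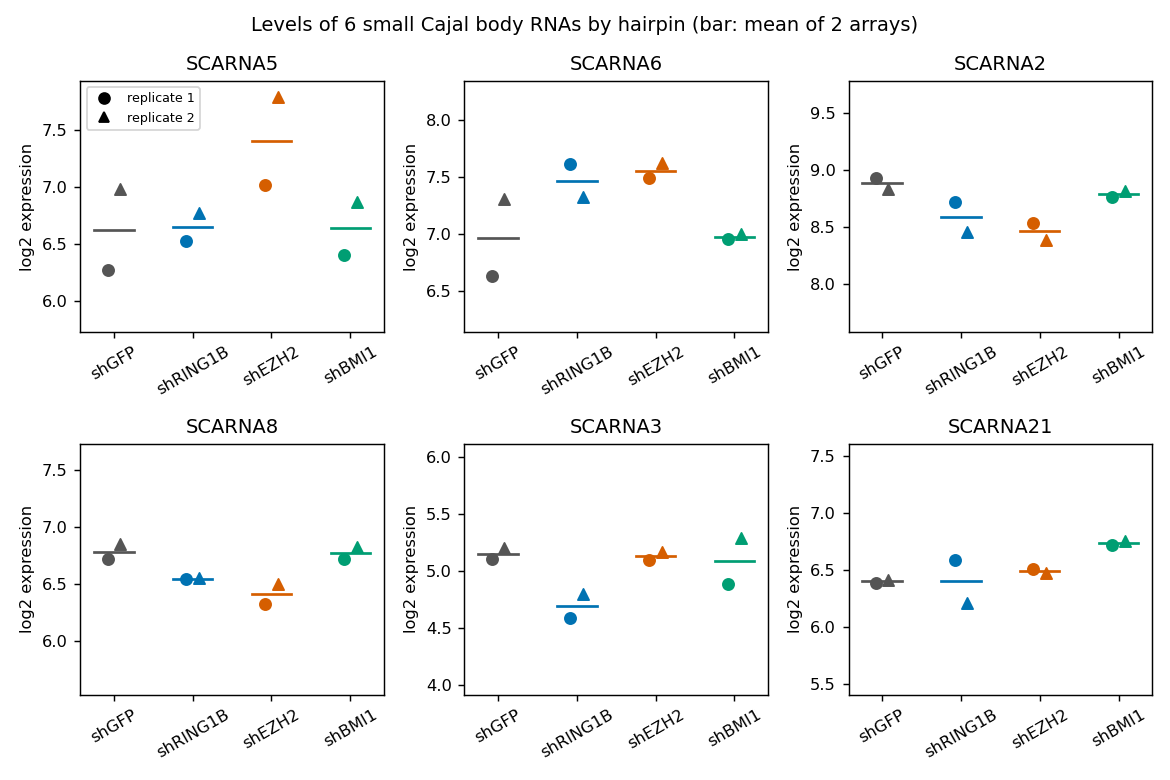
Log2 expression of SCARNA5, SCARNA6, SCARNA2, SCARNA8, SCARNA3 and SCARNA21 by hairpin, with 1 point per array and a bar at the mean of 2 arrays; each panel spans the same range of log2 units. Replicates of SCARNA5 differ by up to 0.77, and SCARNA8 and SCARNA2 are lowest with shEZH2.

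Pooled over the hairpins, replicate arrays differed more for scaRNAs than for most genes. Over the 4 hairpins the median absolute difference between the arrays of a hairpin was 0.19 for scaRNAs, 0.12 for all genes, 0.11 for protein-coding genes and 0.19 for 1072 microRNA genes, the other class of small RNA with many probe sets. By hairpin the scaRNA median was 0.278 with shGFP, 0.201 with shRING1B, 0.189 with shEZH2 and 0.133 with shBMI1. For all genes it was 0.115, 0.123, 0.101 and 0.126, so the excess was largest in the control and small with shBMI1. Of 92 replicate differences of scaRNAs 11 (12%) were over 0.5, against 2.73% of those of all genes. SCARNA9, SCARNA15 and SCARNA5 gave 7 of the 11, and without these RNAs 5% of 80 differences were over 0.5 and the median was 0.17. These shares describe the arrays and were not tested.

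The kinds differed in this spread as well. The median replicate difference was 0.30 for C/D guides, 0.30 for mixed guides and 0.14 for H/ACA guides. With shGFP alone these medians were 0.38, 0.61 and 0.17, and with shBMI1 alone 0.13, 0.23 and 0.10. The residual SD of the fit was above the median of all genes (0.11) for 19 of 23 scaRNAs, and 9 lay in the top 10% of all genes (above 0.22). Among them were SCARNA15 (0.52), SCARNA9 (0.50), SCARNA5 (0.42) and SCARNA6 (0.26), while SCARNA11 (0.07), SCARNA16 (0.08), SCARNA8 (0.09) and SCARNA18 (0.08) lay below the median.

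Among all genes the median replicate difference was smaller at each higher band of mean level: 0.18 under 4, 0.16 at 4 to 6, 0.12 at 6 to 8 and 0.08 at 8 and over. For scaRNAs it was 0.34 under 4 (SCARNA15 and SCARNA23), 0.13 at 4 to 6 (5 RNAs), 0.18 at 6 to 8 (9 RNAs) and 0.23 at 8 and over (7 RNAs). The scaRNAs thus lay above all genes in every band but 4 to 6. The microRNA genes lay above all genes in every band. Their medians were 0.20 under 4, 0.21 at 4 to 6, 0.17 at 6 to 8 and 0.14 at 8 and over. In the brightest band SCARNA17, SCARNA9L, SCARNA12, SCARNA10 and SCARNA7 all had median replicate differences of 0.23 to 0.34, and SCARNA16 and SCARNA2 were at 0.08 and 0.12.

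**Figure D4:**
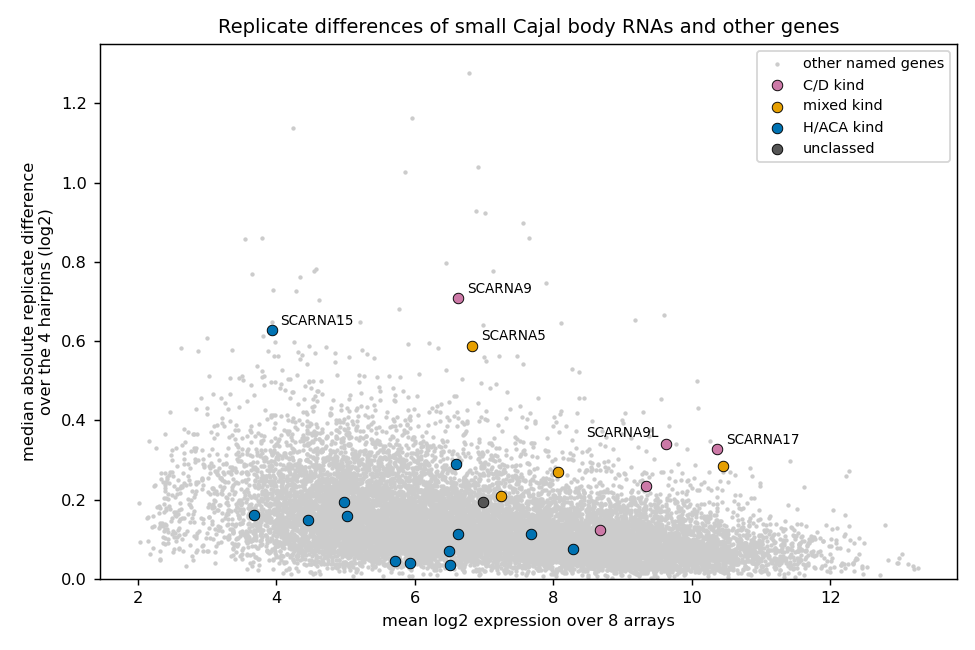
For every named gene (grey) and each small Cajal body RNA (coloured by kind), the median absolute difference between replicate arrays over the 4 hairpins is plotted against mean log2 expression. SCARNA9, SCARNA15 and SCARNA5 stand highest, and C/D and mixed guides above a level of 8 lie mostly over the bulk of genes at that level.

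The differences between replicates had a direction shared by many scaRNAs. The array numbered 2 was the higher for 18 of 23 with shGFP, 15 with shEZH2, 16 with shBMI1 and 12 with shRING1B, where among all genes the share was 50.9%, 50.9%, 49.1% and 48.9%. It was the higher in at least 3 of the 4 hairpins for 15 of 23 scaRNAs (65.2%) and for 33.3% of all genes. SCARNA5, SCARNA17, SCARNA10, SCARNA16, SCARNA3 and SCARNA8 had it higher in all 4 hairpins, SCARNA5 by 0.71 with shGFP, 0.24 with shRING1B, 0.77 with shEZH2 and 0.47 with shBMI1. SCARNA9 ran against this, with the first array higher by 0.74, 0.67 and 1.00 with shGFP, shEZH2 and shBMI1. SCARNA23 had the first array higher in all 4 hairpins, and SCARNA2, SCARNA11 and SCARNA15 in 3 of the 4. Whether arrays of the same number were handled together is not in the labels. With the replicate number as a block, limma called 0 scaRNAs, and the adjusted p of SCARNA5 with shEZH2 was 0.0683.

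RefSeq (GRCh38.p14) places 22 of the 23 scaRNAs within the span of another gene, and that gene was measured for 11 of them. The table used gives no strand. With shEZH2, scaRNA and host had differences of the same sign in 2 of 11 cases, SCARNA12 with PHB2 and SCARNA22 with NSD2. With shRING1B and with shBMI1 this held in 6 of 11 each. No host passed the test in these comparisons. Those with the largest values with shEZH2 were TIPIN, a replication fork protein, at -0.46 ± 0.16 (SCARNA14 at 0.01 ± 0.12), and the centriole protein CEP295 at -0.25 ± 0.10 (SCARNA9 at 0.26 ± 0.36). KPNA4, an importin, was at 0.18 ± 0.13 where SCARNA7 was at -0.36 ± 0.17.

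The proteins that scaRNAs work with had mostly lower values with shEZH2, and none passed. Of the C/D core proteins 3 of 4 were measured, all at negative values: the methyltransferase FBL at -0.11 ± 0.08, NOP58 at -0.09 ± 0.09 and the box-binding SNU13 at -0.31 ± 0.08 (adjusted p = 0.132). Of the H/ACA core proteins 3 of 4 were measured, all negative too, with NHP2 at -0.33 ± 0.12 (adjusted p = 0.234), GAR1 at -0.32 ± 0.15 and NOP10 at -0.14 ± 0.09. Of 11 assembly factors 9 were measured, 8 of them negative with a median of -0.13 (NUFIP1 at -0.23 ± 0.10, TGS1 at -0.19 ± 0.08). Of 9 Cajal body proteins 5 were measured, 4 of them negative, with coilin (COIL), the scaffold of the body, at -0.28 ± 0.13 and TCOF1 at -0.26 ± 0.09. TCOF1 is mainly known as a nucleolar protein of ribosomal RNA synthesis, although it stood on that list. Over all genes 51.9% had negative values in this comparison.

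With shRING1B and shBMI1 these lists lay closer to 0. The medians with shRING1B were -0.06 for C/D core proteins, -0.03 for H/ACA core proteins, -0.02 for assembly factors and -0.07 for Cajal body proteins. With shBMI1 they were -0.08, -0.15, -0.00 and -0.04, and SNU13 stood at -0.23 ± 0.08 (adjusted p = 0.814). Negative with shBMI1 were 3 of 3 C/D core, 3 of 3 H/ACA core, 6 of 9 assembly and 4 of 5 Cajal body proteins. With shRING1B these counts were 2 of 3, 2 of 3, 5 of 9 and 4 of 5. Over all genes 46.6% had positive values with shBMI1 and 49.2% with shRING1B. Each comparison used the same shGFP arrays, so a negative sign was not particular to shEZH2. Of 13 genes listed as hosts of nucleolar RNAs 4 were measured, all of them non-coding, and 0 passed in any comparison with shGFP. With shRING1B all 4 were negative, with SNHG5 at -0.22 ± 0.12 and GAS5 at -0.15 ± 0.12, where 49.2% of all genes were positive. With shEZH2 3 of 4 were negative (all genes 51.9%), and with shBMI1 2 of 4.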

How the data were processed

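The authors deposited log2 expression per probe set for 8 arrays. The submitters' processing notes name RMA and limma, without versions, and the sources used here do not give a genome build. RMA normalizes by quantiles, which would hide a change common to most genes.

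Of 53617 probe sets, 16098 had 1 symbol in the array's annotation, updated through RefSeq gene identifiers. The other 37519, with no symbol or with several, stood for no gene. The probe set with the highest mean stood for a gene. limma 3.58.1 in R 4.3.3 was fitted to all 14884 genes and 8 arrays (a mean per hairpin, 4 residual degrees of freedom, no filter), with Benjamini-Hochberg adjustment within each comparison and two-sided tests. With 2 arrays a group an exact permutation test cannot go below p = 0.333, and the number of arrays limits the precision. The fit was tested on simulated data. The kinds of scaRNA were set after the files showed no SNORA or SNORD symbols, and members and lists were chosen with earlier results of these data known. Named are scaRNAs that were called (none), had the 5 smallest p-values with a knockdown, the highest means or the largest or smallest residual SD, or are well known, and, of the protein lists, those with the largest differences; others are named to account for each member. Host genes are the shortest RefSeq span holding the member; strand could not be compared. Arrays were set in groups by the hairpin label. Mean levels served only to choose named scaRNAs and to set bands for replicate noise; a probe's own brightness enters them. scaRNA sequences are not shown.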

Additional observations from a re-analysis of the deposited data

How the results depend on the processing

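The count of 0 scaRNAs called in each of the 6 comparisons and by the F test was recomputed with quantile normalization, median centring, the dimmest 30% of genes left out, the mean of probe sets, array weights, a trended robust variance, a fit on the 4 arrays of a comparison alone, a fit without shEZH2 arrays, adjustment over all probe sets, and each array left out in turn. It stayed at 0 wherever these applied, except 1 call with shEZH2 under the trended robust variance (SCARNA2), whose cause was not tested; SCARNA2's adjusted p ranged from 0.0304 to 0.455 over its alternatives. Over all genes the share called with shEZH2 was 0.732% as reported, 4.35% with the trended robust variance, 3.93% without the dimmest genes, 1.17% with array weights, 0.262% on 4 arrays alone, 0.00746% over all probe sets and 0% to 0.611% with 1 array left out. Leaving out SCARNA9 and SCARNA9L, or microRNA genes, both chosen after seeing the data, also gave 0. The C/D box and H/ACA box results planned for SNORD and SNORA genes, and their imprinted copies, had no members. Leaving out 1 array moved the scaRNA median between -0.148 and 0.0857 with shRING1B, -0.092 and 0.085 with shEZH2 and -0.07 and 0.08 with shBMI1, without a call.

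With the replicate number as a block, 0 scaRNAs were called in every comparison, and the smallest adjusted p with shEZH2 was 0.0683 (SCARNA5). The differences between replicates correlated between hairpins at 0.00 to 0.25 over all genes and at -0.07 to 0.71 over the 23 scaRNAs, and the samples share only a number. The block changed no call of a scaRNA.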
